A study of Mus musculus with 8 samples.

Results

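The nuclear-encoded respiratory chain was examined in whole mouse cerebellum, by complex. The genes were taken by name (Nduf a, b, c, s or v followed by a number, Sdha to Sdhd, Uqcr, Cox4 to Cox8 and Atp5 genes, without Atp5sl) and needed at least 10 counts in at least 4 of the 8 libraries. Of 83 names matched among 24060 rows, 80 met the minimum: 36 genes of complex I, 4 of complex II, 8 of complex III, 16 of complex IV and 16 of complex V. All 80 were also kept by the expression filter of the test. The 3 names under the minimum were Ndufs5 (0 counts in 7 libraries and 1 in the other), Cox8c (1 count in a single library) and Cox6a2, the muscle isoform of subunit VIa (13, 5, 13 and 11 counts in bigenic libraries 1 to 4 and 2, 8, 0 and 1 in control libraries 1 to 4). The gene just inside was Cox8b, with 9, 6, 7 and 9 bigenic and 10, 19, 14 and 18 control counts, so it met the minimum only through the control libraries, where it is high. Its values are therefore a description, and the counts of calls over the 80 and over complex IV can be read without it.

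Bulk RNA was sequenced from 4 bigenic and 4 control mice, each library from a mouse of its own. Bigenic mice carried CalExflox and Aldh1l1-Cre/ERT2. In CalExflox a plasma membrane calcium pump is switched on by Cre, and Aldh1l1-Cre/ERT2 is a Cre that tamoxifen activates in astrocytes. Control mice carried CalExflox without Cre. Both groups received tamoxifen (75 mg/kg, intraperitoneal) and were dissected 5 days afterwards, so tamoxifen is common to all libraries, while Cre is present in bigenic mice only and its effect cannot be told apart from that of the pump. The labels give neither age nor sex, and no row of the tables names the construct, Cre or a mitochondrially encoded gene.

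Library totals were 35208460 to 38293012 counts. Control libraries 2 and 3 stood apart in choroid plexus transcripts: the summed level of 8 marker genes was 3778 and 4802 CPM there (counts scaled to a common library total), against 639 and 270.4 CPM in control libraries 1 and 4 and 143 to 212 CPM in bigenic libraries. The 10 astrocyte markers summed to 11560 to 13130 CPM in bigenic and 9310 to 9737 CPM in control libraries (6 higher, 1 lower), the 8 microglial markers to 129 to 157 and 170 to 204 CPM (4 lower), and the 8 Purkinje cell markers to 13400 to 15060 and 11860 to 14090 CPM (1 higher). The 8 granule cell markers summed to 5226 to 7098 and 5325 to 6459 CPM (1 higher, 2 lower), the 9 mural cell markers to 122 to 140.2 and 120.1 to 136 CPM (1 higher) and the 8 oligodendrocyte markers to 4470 to 5986 and 4115 to 4964 CPM (3 higher, 1 lower). The 8 endothelial markers summed to 207.8 to 229.8 and 238.7 to 269 CPM (2 lower). Of 6 red cell markers the 4 globin genes were at 0 throughout, and the list summed to 0.257 to 4.00 and 6.28 to 7.59 CPM (1 tested, lower). The astrocyte, microglial, choroid plexus, endothelial and red cell sums did not overlap between groups, and the red cell sum holds only its 1 tested gene. Over all 15186 genes tested, 44.3% were called higher or lower, and 40.7% had groups that did not overlap. The part of these cell types in the values below was not tested, except that results are also given without control libraries 2 and 3.

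Oxidative phosphorylation passes electrons from NADH (complex I) and succinate (complex II) through coenzyme Q, complex III and cytochrome c to oxygen at complex IV. Complexes I, III and IV pump protons across the inner mitochondrial membrane, and complex V, the ATP synthase, lets them flow back to make ATP. Most subunits are encoded in the nucleus and are joined in the mitochondrion to a few encoded by mitochondrial DNA. In brain, most of the ATP spent on ion gradients and synaptic signalling comes from this chain, and the nuclear factors NRF1, GABP, the ERR receptors and YY1 are known regulators of its genes.

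Promoter sequence was available for 67 of the 80 genes (72 windows of 300 bases, from 250 bases before to 50 after the start, RefSeq, GRCm38.p6). The letters of each factor's motif were searched on both strands. The NRF1 motif has 1 free base and is a palindrome only where that base is T. The motif was found in 17 of the 72 windows, or 23.6%, against 4.6% of all 32851 promoter windows. CCGGAAG (GABP) was in 16, or 22.2%, against 8.86%, AAGGTCA (ERR) in 7, or 9.72%, against 4.72%, and AANATGGC (YY1) in 17, or 23.6%, against 6.05%. The YY1 letters were in 12 of the 33 complex I windows, or 36.4%, and in 1 of 13 for complex IV. With the free base of NRF1 fixed to T, it was in 6.94% of windows against 0.971%, and GABP letters with a leading A (ACCGGAAG) were in 8.33% against 2.3%. By direction of change, NRF1 letters were in 3 of 9 windows of genes called higher, 1 of 8 of genes called lower and 13 of 55 of the rest. GABP letters were in 3, 3 and 10 windows, ERR letters in 2, 3 and 2, and YY1 letters in 1, 1 and 15 of the same windows. These are matches of letters and not measured binding.

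The stretches from 100 bases before to 30 bases from the start are shown for 4 of the 5 genes whose call held in every setting tried, 2 lower and 2 higher in bigenic cerebellum; Atp5a1, the other, is named only. Capitals mark the motif letters.
Atp5k (lower; chr5:108434370-108434499, minus strand): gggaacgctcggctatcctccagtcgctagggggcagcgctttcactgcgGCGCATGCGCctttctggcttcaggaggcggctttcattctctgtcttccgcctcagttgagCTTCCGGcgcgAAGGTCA
Ndufc1 (lower; chr3:51408926-51409055, minus strand): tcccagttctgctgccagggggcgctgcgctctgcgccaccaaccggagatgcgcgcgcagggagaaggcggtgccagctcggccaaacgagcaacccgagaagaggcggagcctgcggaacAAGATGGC
Atp5l (higher; chr9:44920713-44920842, minus strand): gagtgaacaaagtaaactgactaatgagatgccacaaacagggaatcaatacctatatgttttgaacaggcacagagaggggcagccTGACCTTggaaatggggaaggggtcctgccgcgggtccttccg
Ndufv3 (higher; chr17:31520015-31520144, plus strand): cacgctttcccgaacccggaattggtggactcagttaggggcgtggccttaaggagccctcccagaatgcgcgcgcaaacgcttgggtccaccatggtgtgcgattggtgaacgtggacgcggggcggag
Counted from the start, with positions before it negative, Atp5k held NRF1 letters at -50 to -41, GABP letters on the opposite strand at 13 to 19 and ERR letters at 24 to 30. Ndufc1 held YY1 letters at 23 to 30. Atp5l held ERR letters on the opposite strand at -13 to -7 and, also on the opposite strand, GABP letters at -212 to -206, outside the stretch shown, and at 25 to 31, of which the stretch lacks the last base. Ndufv3 held none of the 4 motifs in its window.

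Most respiratory chain genes did not pass the test, and those that did went both ways. By edgeR's quasi-likelihood test, 11 of the 80 genes were higher and 9 lower in bigenic cerebellum at an adjusted p under 0.05, 20 in all or 25%. Without Cox8b they were 11 and 8 of 79. Over all 15186 genes tested, 44.3% passed, 21.4% higher and 22.9% lower. At an unadjusted p under 0.05 there were 27 of the 80. The 4 bigenic and 4 control CPM values did not overlap for 10 genes that were higher and 9 that were lower, Cox8b among the 9. Over all genes tested it was 40.7% (19.4% higher, 21.4% lower). The median log2 fold change was 0.07 for the 80 genes and 0.00 for all genes, and the median size regardless of sign was 0.14 against 0.295. Apart from Cox8b, Atp5l was the only gene of the 80 that passed with a change of over 1.5-fold, against 19.5% of all genes tested. For 71 of the 80 genes the 95% interval of the change lay within 1.5-fold either way, as for 49.1% of all genes, with a median standard error (SE) of 0.08 against 0.12. In bulk tissue, fewer cells of a type and less RNA per cell cannot be told apart, which holds for each difference given here. Another scaling gives another split. Scaled by library size alone, 5 of the 80 were higher and 20 lower, beside 2423 higher and 4373 lower of all 15186 genes. The medians were -0.02 for the 80 and -0.09 for all genes. There Ndufb4, Ndufb8, Ndufv1, Cox4i1, Cox6a1 and Atp5o lost their call, the other 5 higher and all 9 lower genes kept it, and 11 more genes were called lower. Upper-quartile factors ended the calls of Ndufb8, Ndufv1, Cox4i1, Cox6a1 and Atp5o, testing without a filter those of Ndufb8, Ndufv1, Cox4i1, Atp5o and Cox8b, and an offset for length and base composition those of Cox4i1, Uqcrq and Atp5s.

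**Figure D1:**
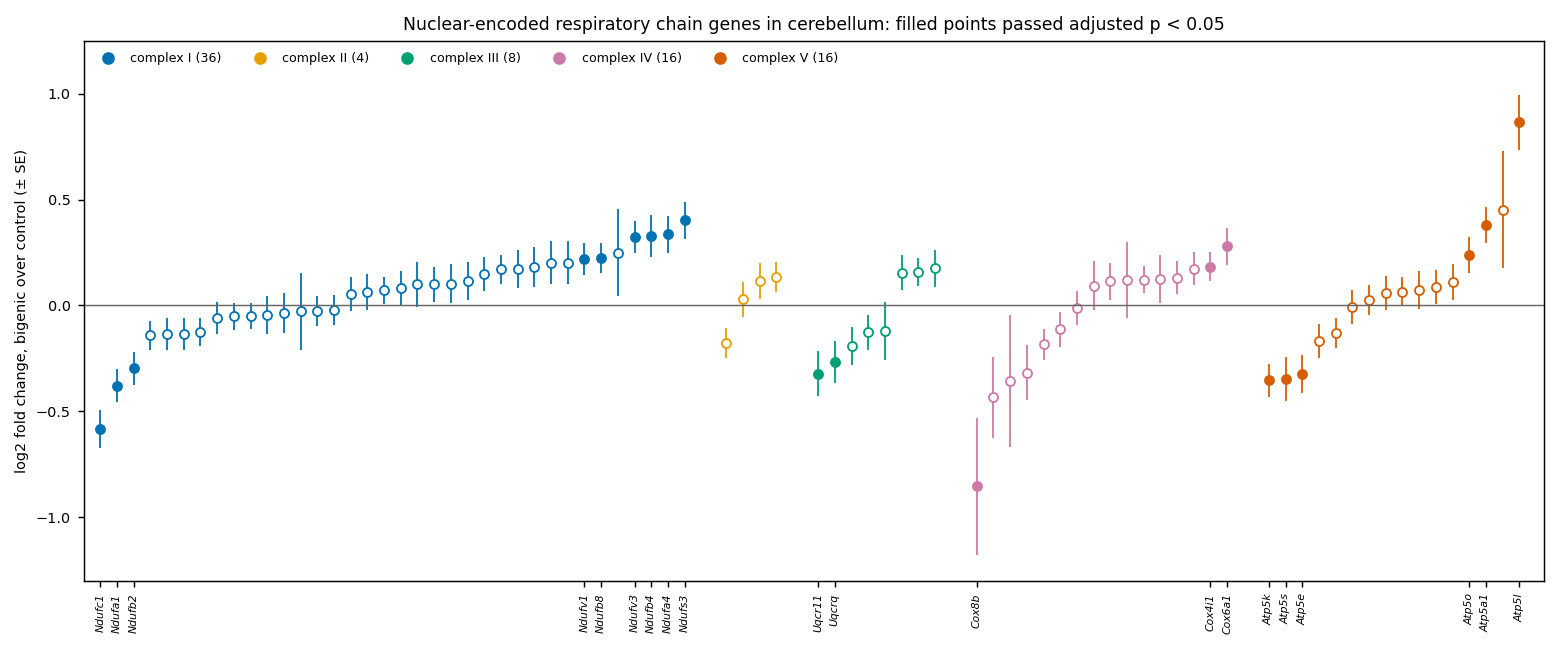
Log2 fold change (bigenic over control, y axis) with its SE for each of the 80 respiratory chain genes, grouped and coloured by complex; filled points passed adjusted p < 0.05 and are named on the x axis. The 11 higher and 9 lower genes lie at both ends of complexes I, IV and V, complex II has none, and complex III has 2, both lower.

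Without control libraries 2 and 3, 3 of the 80 genes were higher and 2 lower, and the same counts were found with the level of Ttr, a choroid plexus transcript, as a covariate. The 5 genes that passed in both were Atp5a1, Atp5l and Ndufv3, which were higher, and Atp5k and Ndufc1, which were lower. They also passed when each library was left out in turn and under every other setting. The other 15 lost their call without control libraries 2 and 3 and kept their direction in every setting that tested them. Their changes without these libraries are given below beside the main ones. Over all genes tested, 1582 were higher and 1767 lower without these libraries, and 1277 higher and 1665 lower with the Ttr covariate.

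Complex I oxidises NADH in an arm that projects into the matrix and pumps protons through an arm in the membrane. Of its 36 genes 6 were higher and 3 lower, with a median log2 fold change of 0.08, which was -0.0088 with library size alone. Its 7 nuclear-encoded core subunits, which include the carriers of the flavin and the iron-sulfur clusters and are conserved from bacteria, held 2 of the higher genes and 0 of the lower ones, with a median of 0.17.

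Ndufs3, a core subunit of the module that reduces coenzyme Q (chromosome 2, 90894634 to 90904827, minus strand), stood at 71.3, 57.6, 74.15 and 73.4 CPM in bigenic libraries 1 to 4 against 54.3, 51.8, 51.9 and 51.1 CPM in controls 1 to 4. The groups did not overlap, and bigenic library 2 lay closest to the controls. The log2 fold change was 0.40 ± 0.09 (SE; adjusted p = 0.00337), and 0.39 (adjusted p = 0.0554) without control libraries 2 and 3. Of its 50-base words 35.8% also occur in 2 other genes, and its exons overlap Kbtbd4 on the opposite strand.

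Ndufv1, which binds NADH and the flavin, stood at 273.6, 236, 248 and 277 CPM in bigenic libraries against 237, 223.5, 217 and 210.3 CPM in controls. Bigenic library 2 lay just under control library 1, so the groups overlapped. The change was 0.22 ± 0.08 (SE; adjusted p = 0.0329), and 0.21 (adjusted p = 0.208) without control libraries 2 and 3. The call was lost in 5 of the 8 fits that left out a library, those without bigenic library 1 or 4 or control library 2, 3 or 4, with an adjusted p of up to 0.113. Among core genes that did not pass were Ndufv2 at 0.20 ± 0.10, Ndufs7 at 0.17 ± 0.09, Ndufs1 at 0.06 ± 0.08 and Ndufs8 at -0.12 ± 0.07 (log2, SE), with adjusted p from 0.12 to 0.605.

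Ndufv3, an accessory subunit beside the flavin (chromosome 17, 31520115 to 31531331, plus strand), stood at 128, 128, 147 and 141 CPM in bigenic libraries against 105.5, 108, 117 and 104 CPM in controls. All 4 bigenic values were above all control values. The change was 0.32 ± 0.07 (SE; adjusted p = 0.00453), and 0.37 without control libraries 2 and 3 (adjusted p = 0.0333). Ndufv3 shares no 50-base word with another gene and has no overlapping exon.

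Ndufa4 is counted here in complex I by its name, although its protein is now placed in complex IV. The calls, median and sums of complex I were not calculated without it. Ndufa4 stood at 432, 369, 480.1 and 455 CPM in bigenic libraries against 316.5, 347.5, 351 and 361 CPM in controls. The groups did not overlap, with bigenic library 2 again the lowest of its group (log2 fold change 0.34 ± 0.09, SE; adjusted p = 0.00905). Without control libraries 2 and 3 it was 0.36 (adjusted p = 0.0686). Among accessory subunits of the membrane arm, Ndufb4 was higher by 0.33 ± 0.10 and Ndufb8 by 0.22 ± 0.07 (log2, SE; adjusted p = 0.0207 and 0.0242), neither with overlap. Without control libraries 2 and 3 they were at 0.38 (adjusted p = 0.0784) and 0.197 (adjusted p = 0.203). Ndufb4 lost its call without bigenic library 4, control library 1 or control library 2 (adjusted p up to 0.0632) and shares 37% of its 50-base words. Ndufb8 lost its call without bigenic library 1, 3 or 4 or control library 2 or 3 (adjusted p up to 0.08), and its exons overlap Gm20538 on the same strand.

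The 3 lower genes of complex I are all small accessory subunits of the membrane arm. Ndufc1 (chromosome 3, 51404677 to 51408988, minus strand) stood at 31.6, 30.7, 25.0 and 30.7 CPM in bigenic libraries against 43.9, 42.1, 43.6 and 47.1 CPM in controls. Every bigenic value was under every control value, and bigenic library 3 was the lowest. The change was -0.58 ± 0.09 (SE; adjusted p = 0.000452), and -0.63 without control libraries 2 and 3 (adjusted p = 0.00904).

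Ndufa1, which is X-linked (37187588 to 37191163, minus strand), stood at 51.7, 52.3, 52.7 and 54 CPM in bigenic libraries against 61.3, 67.1, 75.9 and 69.6 CPM in controls. The bigenic values lay close together under all controls (log2 fold change -0.38 ± 0.08, SE; adjusted p = 0.00243). Without control libraries 2 and 3 the change was -0.32 (adjusted p = 0.0549). Ndufb2 stood at 51.4, 48.9, 43.9 and 45.45 CPM in bigenic libraries against 53.8, 60.5, 58.3 and 60.3 CPM in controls, again without overlap. Its change was -0.296 ± 0.08 (SE; adjusted p = 0.00984), and -0.27 (adjusted p = 0.117) without control libraries 2 and 3. Exons of Ndufb2 overlap Gm42420 on the same strand and Braf and Gm16272 on the opposite strand.

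The other 27 genes of complex I, core genes included, did not pass. They ran from -0.14 (Ndufa8) to 0.25 (Ndufb9) on the log2 scale. Ndufb9, an accessory subunit, varied most among the abundant ones, at 238, 425, 279 and 257 CPM in bigenic and 277, 196, 207 and 329 CPM in control libraries. Bigenic library 2 was the highest of all 8 there, and exons of Ndufb9 overlap Gm49356 on the same strand.

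**Figure D2:**
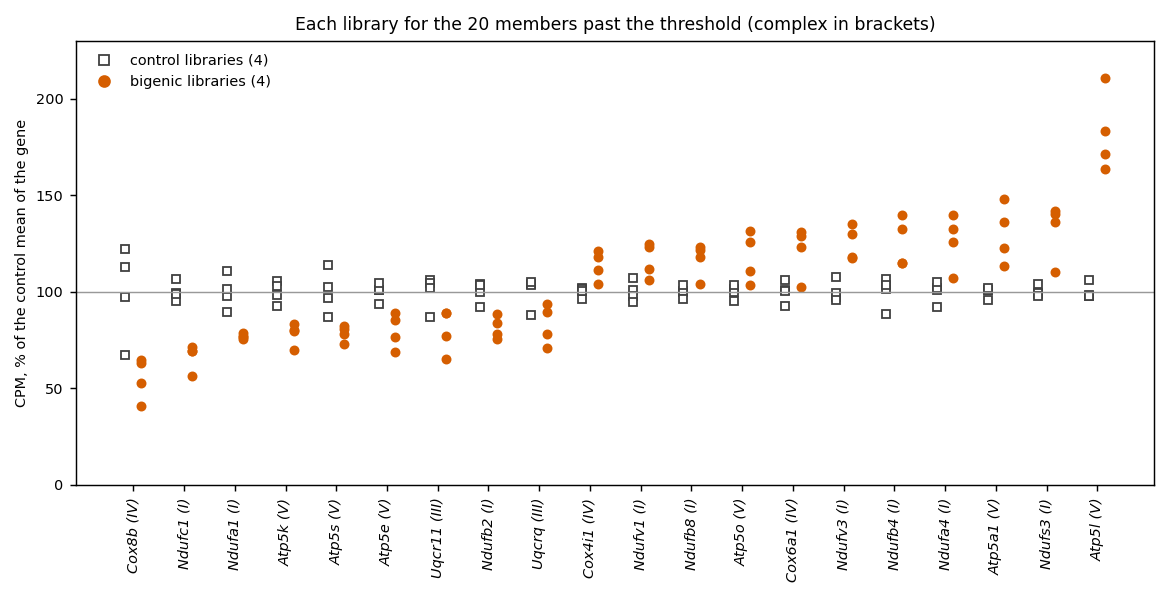
CPM of each library as a percentage of the gene's control mean (y axis) for the 20 genes past the threshold, with the complex in brackets; open squares are control and filled circles bigenic libraries. Overlap occurs for 5 of the 20, at bigenic library 2 for Ndufv1, Cox6a1 and Atp5o and at control library 3 for Uqcr11 and Uqcrq, and Atp5l shows the widest separation.

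Complex II, succinate dehydrogenase, is the only complex built wholly from nuclear genes and is also an enzyme of the citric acid cycle. None of its 4 genes passed by edgeR's test, and 1 had an unadjusted p under 0.05. By DESeq2 the counts were also 0 and 0. Sdha, the flavoprotein and the most abundant of the 4, stood at 510.2, 586, 635 and 609 CPM in bigenic libraries against 519, 586, 599 and 587 CPM in controls. The values overlapped almost fully (log2 fold change 0.03 ± 0.08, SE; 95% interval -0.15 to 0.21). Sdhb, the iron-sulfur subunit, was at 0.14 ± 0.07, and of the membrane anchors Sdhd was at 0.11 ± 0.08 and Sdhc at -0.18 ± 0.07 (log2, SE; adjusted p = 0.151, 0.295 and 0.0614). Sdhc lay at 108 to 128.4 CPM in bigenic libraries against 128.0 to 135 CPM in controls, with 1 bigenic library inside the control range.

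Complex III, cytochrome bc1, hands electrons from coenzyme Q to cytochrome c. Of its 8 genes 0 were higher and 2 lower, with a median of -0.12. Both lower genes encode small subunits without a redox centre. Uqcr11 (chromosome 10, 80402997 to 80406830, minus strand) stood at 81.9, 70.9, 60.2 and 81.9 CPM in bigenic libraries against 98.0, 96.5, 80.2 and 93.8 CPM in controls. Control library 3 lay inside the bigenic range. The change was -0.32 ± 0.11 (SE; adjusted p = 0.0283), and -0.38 (adjusted p = 0.0687) without control libraries 2 and 3.

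Uqcrq stood at 55.2, 45.9, 41.7 and 52.6 CPM in bigenic libraries against 61.0, 60.9, 51.6 and 61.7 CPM in controls, with control library 3 again inside the bigenic range. The change was -0.27 ± 0.10 (SE; adjusted p = 0.0483), and -0.33 (adjusted p = 0.0935) without control libraries 2 and 3. Uqcr11 lost its call without bigenic library 2 or control library 1, 2 or 4 (adjusted p up to 0.0761). Uqcrq lost it in 6 of the 8 such fits, all but those without bigenic library 1 or control library 3 (adjusted p up to 0.114).

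The larger subunits pointed the other way without passing. The core proteins Uqcrc1 and Uqcrc2 were at 0.16 ± 0.07 and 0.18 ± 0.09 and the Rieske iron-sulfur protein Uqcrfs1 at 0.15 ± 0.08 (log2, SE; adjusted p = 0.07, 0.119 and 0.15). The 4 bigenic values of Uqcrc1, 346 to 384 CPM, were above all 4 control values, 319 to 341 CPM. Uqcrh, the hinge protein and the most abundant of the complex per length, stood at 208, 216, 221.5 and 209 CPM in bigenic libraries against 203, 239, 268 and 265 CPM in controls. Its change was -0.19 ± 0.09 (SE; adjusted p = 0.101), and control library 1 lay below all bigenic libraries.

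Complex IV, cytochrome c oxidase, passes electrons to oxygen. Its 3 largest subunits are mitochondrially encoded, and several nuclear ones exist as isoforms expressed in different tissues. Of its 16 genes 2 were higher and 1, Cox8b, lower, with a median of 0.103. Cox4i1, the general isoform of subunit IV (chromosome 8, 120668222 to 120674207, plus strand), stood at 677, 630.4, 734.5 and 716 CPM in bigenic libraries against 585, 619, 615 and 610 CPM in controls. All bigenic values were above all controls, with bigenic library 2 nearest. The change was 0.18 ± 0.07 (SE; adjusted p = 0.0487), and 0.204 (adjusted p = 0.178) without control libraries 2 and 3. The call was lost in 7 of the 8 fits that left out a library, all but that without bigenic library 2 (adjusted p up to 0.136), and its exons overlap Emc8 on the opposite strand.

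Cox6a1, the isoform of subunit VIa found in most tissues, stood at 261, 207, 249 and 265 CPM in bigenic libraries against 214, 205, 187 and 203 CPM in controls. Bigenic library 2 lay inside the control range. The change was 0.28 ± 0.09 (SE; adjusted p = 0.0214), and 0.23 (adjusted p = 0.191) without control libraries 2 and 3. It lost its call without bigenic library 1 or 4 or control library 2 or 3 (adjusted p up to 0.0779).

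Cox8b, the muscle isoform of subunit VIII (chromosome 7, 140898945 to 140900446, minus strand), was near the detection limit, at 0.257, 0.162, 0.21 and 0.25 CPM in bigenic libraries against 0.269, 0.487, 0.388 and 0.448 CPM in controls. The groups did not overlap, but bigenic library 1 and control library 1 nearly touched. The fitted change was -0.85 ± 0.32 (SE), and -0.71 without control libraries 2 and 3. Because the count minimum was met through the controls alone, the fit's adjusted p of 0.0499 is no independent test of a lower level. Without control library 2 or 4 it was too low to be tested, and its call was lost without control libraries 2 and 3, without any 1 bigenic library, without control library 3, with other filters and by DESeq2. Summed markers of skeletal and heart muscle were at 4.49 to 5.62 CPM in bigenic and 3.87 to 5.46 CPM in control libraries.

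The pairing of general and tissue isoforms was followed as a ratio of counts within each library, which no scaling between libraries changes. An exact permutation test (two-sided, 35 splits, smallest possible p 0.0286) was run on 8 ratios and adjusted over them; none passed. Apart from the ratio with Cox8b, given below as a description, the groups did not overlap for 2 ratios, whose p was at that minimum (exact permutation p = 0.0286, adjusted p = 0.0762 over 8 ratios and 0.1 over the 7 without Cox8b). Cox7a1, the muscle isoform of subunit VIIa, stood at 2.37, 2.51, 2.14 and 2.52 counts per 100 of Cox7a2 in bigenic and 2.96, 2.58, 3.17 and 3.03 in control libraries, a log2 difference of -0.298. Bigenic library 4 and control library 2 were the nearest values.

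Cox8b stood at 0.0606, 0.0425, 0.0489 and 0.0607 per 100 counts of Cox8a in bigenic and 0.073, 0.127, 0.103 and 0.117 in control libraries (log2 difference -0.92). Ndufa4l2, a paralog induced by low oxygen and known in mural cells of vessels, stood at 0.403, 0.418, 0.455 and 0.483 per 100 counts of Ndufa4 in bigenic and 0.611, 0.568, 0.514 and 0.58 in control libraries (log2 difference -0.37). Ndufa4l2 itself was at -0.03 ± 0.18 (log2, SE), while Ndufa4 was higher, and the summed mural markers overlapped between groups. Without control libraries 2 and 3 the differences were -0.33 (Cox7a1), -0.77 (Cox8b) and -0.44 (Ndufa4l2), and no ratio passed there, where the smallest p is larger.

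For the other 5 ratios the groups overlapped. The log2 differences were -0.08 for Cox4i2 to Cox4i1, -0.24 for Cox6b2 to Cox6b1, -0.398 for Cox7b2 to Cox7b, -0.001 for Atp5g1 to Atp5g3 and 0.34 for Atp5g2 to Atp5g3 (adjusted p from 0.411 to 0.971, exact permutation test). Of 8 tissue isoforms listed 6 were tested, with 0 higher, 1 lower (Cox8b) and a median of -0.34. The median was -0.136, -0.128 and -0.132 without control library 2, 3 or 4 and -0.0752 without both 2 and 3. These fits tested 6, 7, 6 and 7 of the 8, not the same 6 genes as above. Counts were 1 higher and 0 lower without control library 2, without both 2 and 3, without bigenic library 2 and without a filter. Among the remaining complex IV genes the widest was Cox6b2, the testis isoform of subunit VIb, at -0.43 ± 0.19 (log2, SE; adjusted p = 0.0812), from 1.92 to 2.75 CPM in bigenic and 2.63 to 4.26 CPM in control libraries. Cox6b1, its general isoform, was at -0.18 ± 0.07 (adjusted p = 0.0598) and Cox8a at 0.12 ± 0.07 (adjusted p = 0.146; log2, SE).

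Complex V makes ATP in a head of 5 subunit types (F1), which a stalk joins to a proton channel in the membrane. Of its 16 genes 3 were higher and 3 lower, with a median of 0.06 that was -0.0232 with library size alone and 0.0276 without bigenic library 3, and both directions occurred within the head and within the membrane part. In the head, Atp5a1, which encodes the alpha subunit on chromosome 18, stood at 1951, 1802, 2347 and 2158 CPM in bigenic libraries against 1606, 1604, 1619 and 1520.0 CPM in controls. Every bigenic library was above every control, with a wider spread among the bigenic ones. The change was 0.38 ± 0.08 (SE; adjusted p = 0.00387), and 0.40 without control libraries 2 and 3 (adjusted p = 0.0446).

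Atp5b, the catalytic beta subunit that pairs with alpha, did not pass. It stood at 2024, 1963, 2252 and 2226 CPM in bigenic libraries against 2036, 2104, 2150 and 2029 CPM in controls (log2 fold change 0.03 ± 0.07, SE; 95% interval -0.13 to 0.18; adjusted p = 0.789). The difference between the 2 genes' changes was not tested. Atp5e, the small epsilon subunit of the central stalk (chromosome 2, 174461072 to 174464105, minus strand), stood at 66.8, 57.4, 51.8 and 63.9 CPM in bigenic libraries against 75.9, 75.7, 70.3 and 78.4 CPM in controls. All bigenic values were under all controls (-0.32 ± 0.09, SE; adjusted p = 0.0112), and the change was -0.36 (adjusted p = 0.0583) without control libraries 2 and 3. The gamma and delta subunits were at 0.09 ± 0.08 (Atp5c1) and -0.17 ± 0.08 (Atp5d; log2, SE; adjusted p = 0.401 and 0.104).

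The widest change among the 80 genes was that of Atp5l, subunit g of the membrane part (chromosome 9, 44912557 to 44920742, minus strand). It stood at 6.25, 5.57, 5.84 and 7.18 CPM in bigenic libraries against 3.36, 3.33, 3.33 and 3.61 CPM in controls. The controls lay close together and all bigenic libraries were well above them, with a change of 0.86 ± 0.13 on the log2 scale (SE; adjusted p = 0.000389), and 0.83 without control libraries 2 and 3 (adjusted p = 0.0141). Atp5l was counted at a low level per length, 9.3 FPKM (counts scaled by gene length and library total) against a median of 138 for the 80 genes. Of its 50-base words 68.5% also occur in 13 other genes, so its value is uncertain. Its exons also overlap Gm30934 on the opposite strand.

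Atp5k, subunit e, sits beside subunit g where ATP synthases pair (chromosome 5, 108433244 to 108434448, minus strand). It stood at 80.7, 80.2, 70.3 and 83.8 CPM in bigenic libraries against 99.2, 106.2, 93.4 and 103.6 CPM in controls. No bigenic value reached a control value, in the direction opposite to Atp5l. The change was -0.35 ± 0.08 (SE; adjusted p = 0.00342), and -0.37 without control libraries 2 and 3 (adjusted p = 0.0358). Atp5k shares no 50-base word with another gene.

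Atp5o, which tops the outer stalk, stood at 243, 227.5, 288 and 276.5 CPM in bigenic libraries against 209, 222, 219 and 228 CPM in controls, with bigenic library 2 just under control library 4. Its change was 0.24 ± 0.08 (SE; adjusted p = 0.0353), and 0.24 (adjusted p = 0.17) without control libraries 2 and 3. It passed in 2 of the 8 fits that left out a library, those without bigenic library 1 or 2, and its exons overlap Donson on the same strand. Atp5s, coupling factor B, is counted here in complex V by its name. It is in neither the list of head genes nor that of stalk and membrane genes. Atp5s stood at 12.7, 13.2, 13.4 and 11.9 CPM in bigenic libraries against 14.1, 15.7, 18.5 and 16.6 CPM in controls. Its change was -0.35 ± 0.10 (SE; adjusted p = 0.0184), and -0.27 (adjusted p = 0.18) without control libraries 2 and 3. Its call was also lost without bigenic library 4 or control library 3 (adjusted p = 0.0541 and 0.0626) and with an offset for length and base composition.

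The proton-carrying ring is made of 1 protein that Atp5g1, Atp5g2 and Atp5g3 all encode. Per length, Atp5g3 was at 242, Atp5g1 at 68.5 and Atp5g2 at 1.72 FPKM over all libraries. None passed: the changes were 0.07 ± 0.09, 0.07 ± 0.07 and 0.45 ± 0.28 (log2, SE). Of 10 stalk and membrane genes 2 were higher and 1 lower, with a median of 0.07 (-0.0158 with library size alone).

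Summed over genes, the complexes differed little between groups. The summed CPM of all 80 genes was 15350, 14590, 16830 and 16380 in bigenic and 14200, 14660, 14880 and 14960 in control libraries. Bigenic library 2 lay among the controls, and the ratio of the means was 1.08. The ratio was 1.07 or 1.08 for complexes I and IV, 1.02 for complexes II and III and 1.10 for complex V. The groups overlapped for each complex, for complexes I, IV and V only through bigenic library 2. Atp5a1 made up most of the complex V difference. Its bigenic mean was 2065 CPM and its control mean 1587 CPM, beside means of 5964 and 5412 CPM for the whole complex. The sums of complex V and of all 80 genes, which both hold Atp5a1, were not calculated without it. With the deposited FPKM, which weights short genes more and uses no scaling beyond the total, the ratio was 0.987 for all 80 and 0.982 for complex V. In that unit complex III was at 1507, 1390.0, 1460.0 and 1554 in bigenic and 1561, 1649, 1655 and 1760.0 in control libraries, a ratio of 0.892 without overlap.

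**Figure D3:**
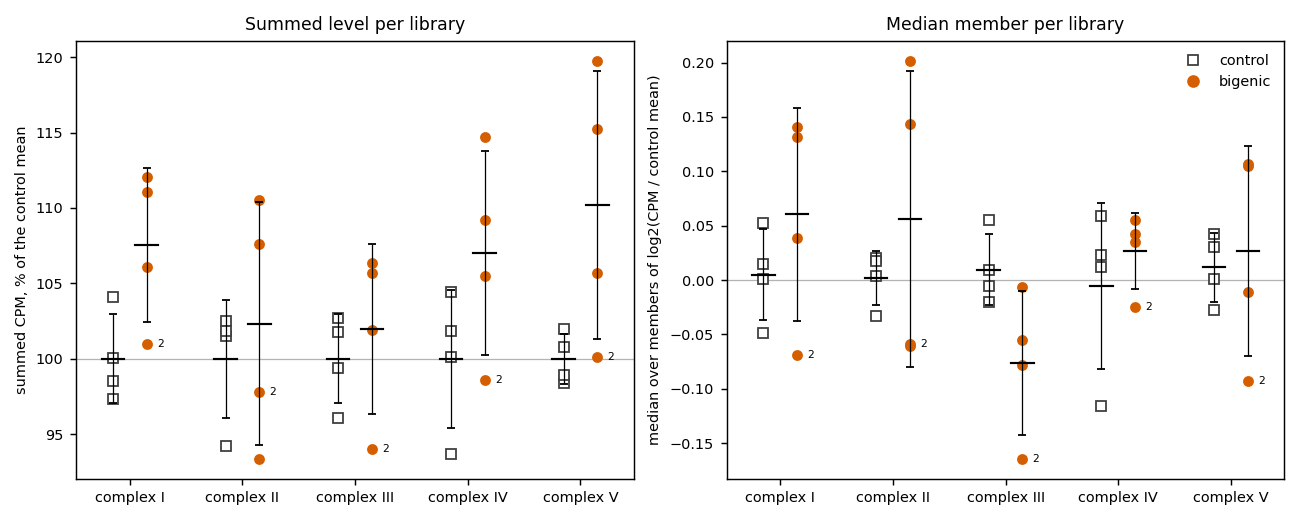
Left, summed CPM of each complex per library as a percentage of the control mean; right, the median over its genes of log2(CPM over the control mean). Open squares are control and filled circles bigenic libraries, bars give mean and SD (n = 4), and bigenic library 2, marked 2, is the lowest bigenic library in both panels for complexes I, III, IV and V.

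Among fits that left out 1 library, the number called higher was largest without bigenic library 2, at 23 of the 80, with 6 lower. Of all 15179 genes tested without that library, 3562 were higher and 3802 lower. The median over the 80 genes of the log2 deviation from the control mean was -0.08 in that library, against 0.00, 0.12 and 0.09 in bigenic libraries 1, 3 and 4. It ranged from -0.05 to 0.05 in the controls.

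Per length, the most abundant genes of each complex were Atp5b (1116 FPKM), Cox4i1 (847), Ndufa4 (788, counted in complex I by its name), Uqcrh (419.6) and Sdha (202). The lowest was Cox8b (0.859 FPKM). Genes called higher had a median of 309 FPKM, genes called lower, Cox8b included, of 117 and the rest of 138.

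Direction also went with gene length among the 80. The median length was 764 bases for the 11 higher genes, 436 for the 9 lower and 746.5 for the rest. The 9 lower genes include Cox8b (363 bases), which met the count minimum only through the control libraries. Cox8b is also in the counts and correlations below for the 80 genes and for complex IV, which were not calculated without it. Across the 80 genes, which share the same libraries and are not independent, the correlation of log2 length with log2 fold change was 0.333 (Pearson) and 0.372 (Spearman). Over all 15186 genes it was -0.004 and 0.03. Of 32 respiratory chain genes under 600 bases 4 were higher and 8 lower (median -0.12), whereas of all 385 genes of that length 22.6% were higher and 15.6% lower (median 0.135). By complex, the Pearson correlation was 0.276 for complex I (36 genes), 0.94 for complex III (8), 0.523 for complex IV (16) and 0.149 for complex V (16). In complex III the 3 genes above 0 were the 3 longest. With an offset for length and base composition fitted over all genes, 24 of the 80 were higher and 10 lower, and the short class had a median of -0.05. Of all 15186 genes, 4133 were higher and 3439 lower with that offset.

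**Figure D4:**
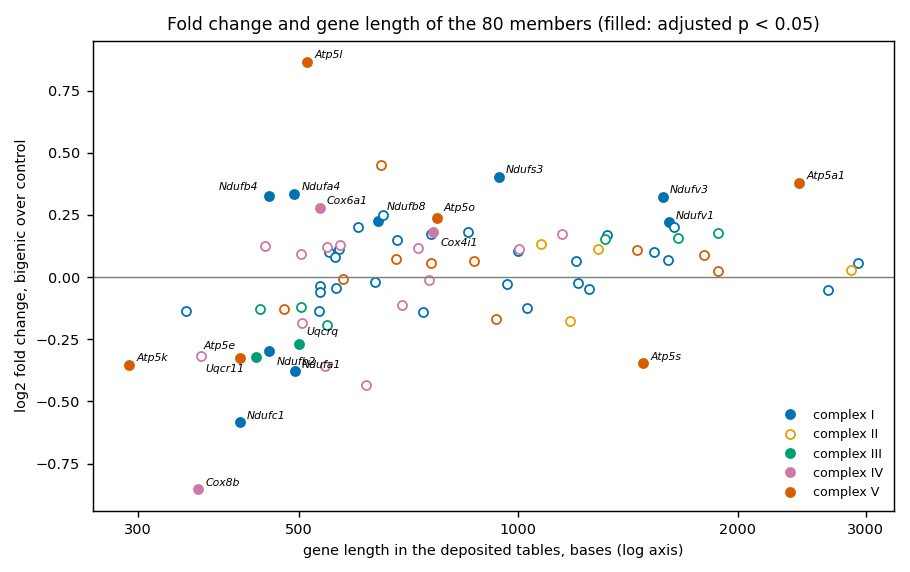
Log2 fold change (y axis) against gene length in bases (x axis, log scale) for the 80 genes, coloured by complex and filled where adjusted p < 0.05. Of the 9 lower genes 8, Cox8b among them, are under 600 bases, Atp5s being the exception at 1485, while the 11 higher genes run from 454 to 2431 bases.

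Shared sequence was common. Of the 80 genes 32 shared some 50-base word with another gene and 4 shared over 50% (Atp5l, Atp5g1, Ndufa12 and Atp5h). Exons overlapped another gene on the opposite strand for 24 and on the same strand for 5. Of the 48 genes that shared no word 6 were higher and 6 lower. How reads with several matches were counted, and whether strand was used, is not given in the sources used here.

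Genes around the chain were read from lists outside the 80, in the same test. Electron carriers and subunits outside the naming rule had 0 higher and 8 lower of 12, with a median of -0.25, where 22.9% of all genes were lower. There were 2 lower without control libraries 2 and 3 and 1 with the Ttr covariate, and the medians were -0.226 and -0.25. Cycs, cytochrome c, averaged 22.9 ± 1.56 CPM in bigenic libraries against 32.2 ± 1.73 in controls (SD, n = 4), a change of -0.49 ± 0.08 on the log2 scale (SE; adjusted p = 0.000833). Aifm1, which supports import of respiratory chain subunits, changed by -0.56, Gpd2, the mitochondrial glycerol phosphate dehydrogenase, by -0.45 and Etfdh, which feeds electrons from fat oxidation to coenzyme Q, by -0.26. Cycs and Aifm1 also passed without control libraries 2 and 3 (adjusted p = 0.015 and 0.0358), and Gpd2 and Etfdh did not (0.0595 and 0.142); with the Ttr covariate Aifm1 did not pass either (adjusted p = 0.0508).

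Assembly factors, which build the complexes without staying in them, had 5 higher and 18 lower of 41 tested, with a median of -0.204, where 21.4% of all genes were higher and 22.9% lower. The counts were 1 and 12 without control libraries 2 and 3 and 0 and 10 with the Ttr covariate. Coa4, a complex IV factor, averaged 1.03 ± 0.415 CPM in bigenic libraries against 5.46 ± 0.403 in controls (SD, n = 4), a change of -2.39 ± 0.26 on the log2 scale (SE; adjusted p = 5.88e-05). Bcs1l, which inserts the Rieske protein into complex III, changed by -1.62, Timmdc1, a complex I factor, by -0.92 and Coa3, another complex IV factor, by -0.88. All 4 factors passed under every setting. Beside them, Uqcrfs1 was at 0.15, complex I genes ran from -0.58 to 0.40 and complex IV genes from -0.85 (Cox8b) to 0.28 on the log2 scale.

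Coenzyme Q synthesis had 2 higher and 4 lower of 13 (median 0.06), with Adck3 at 0.86, Coq4 at -0.91, Adck4 at -0.61 and Coq5 at -0.41. The citric acid cycle had 2 higher and 2 lower of 18 (median 0.06), with Idh2 at 0.63, Dlat at 0.23, Pdhb at -0.25 and Fh1 at -0.21. Regulators of mitochondrial genes had 4 higher and 2 lower of 15 (median 0.07). Ppargc1a, the coactivator of mitochondrial biogenesis, averaged 44.6 ± 6.56 CPM in bigenic libraries against 29.7 ± 0.34 in controls (SD, n = 4), a change of 0.59 ± 0.10 on the log2 scale (SE; adjusted p = 0.000818). Esrrb was at 0.76, Tfam, which packages and transcribes mitochondrial DNA, at 0.34, and Tfb1m, which methylates mitochondrial ribosomal RNA, at -1.54. With library size alone the medians of the coenzyme Q, citric acid cycle and regulator lists turned negative. The lists had 1 higher and 3 lower, 1 and 0, and 2 and 1, in that order, without control libraries 2 and 3. Dlat, Pdhb, Fh1 and Tfam lost their call there (adjusted p from 0.14 to 0.208), and Dlat and Tfam also did with library size alone.

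Other groups of short abundant genes served as a comparison. Of 77 mitochondrial ribosomal protein genes 14 were higher and 28 lower (54.5% called, median -0.07). Of 78 cytosolic ribosomal protein genes 32 were higher and 3 lower (44.9%, median 0.28), and of 39 genes with proteasome subunit names 8 were higher and 4 lower (30.8%, median 0.11). The respiratory chain had 25% called and a median of 0.07, and all genes 44.3%. The mitochondrial ribosomal genes, without control libraries 2 and 3, had 6 higher and 17 lower, the cytosolic 10 and 1 and the proteasome genes 2 and 3, and with the Ttr covariate 1 and 15, 5 and 1, and 2 and 3. With library size alone the cytosolic ribosomal genes had 18 higher and 4 lower, and without bigenic library 4 they had 18 and 3. These are counts beside each other, and no test of a difference between groups of genes was made.

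**Figure D5:**
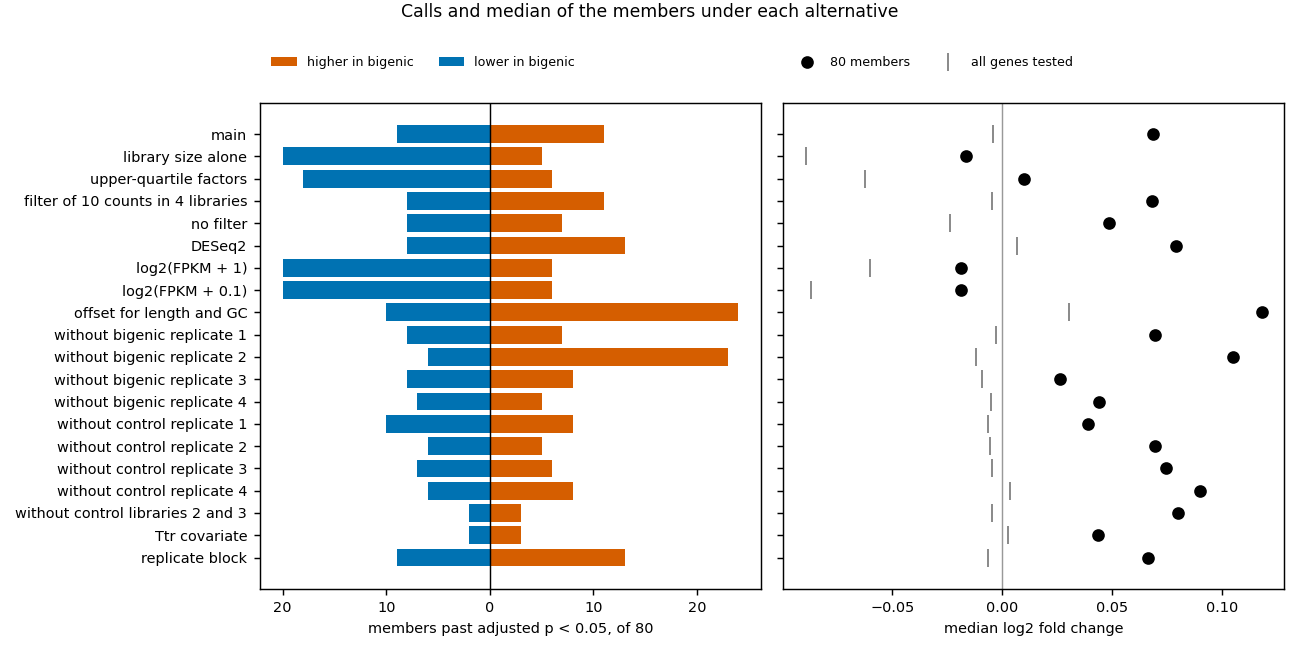
Left, number of the 80 genes past adjusted p < 0.05 that were higher (right of 0) or lower (left of 0) in bigenic cerebellum under each setting; right, median log2 fold change of the 80 genes (points) and of all genes tested (ticks). Higher calls run from 3 to 24 and lower calls from 2 to 20, and the points lie to the right of the ticks under every setting.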

How the data were processed

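Whole cerebellum of 4 bigenic and 4 control mice was compared, with groups taken from the labels. The authors deposited 1 table of whole-number read counts per gene symbol and 1 table of FPKM. Each deposited FPKM is the count over a fixed gene length and the total of its column, as a comparison of both tables showed. STAR, HTSeq and mm10 are named in the submitters' processing notes; versions, strand setting and the treatment of reads with several matches are not given in the sources used here. The labels disagree on the kit: the series design names Nugen Ovation libraries and a NextSeq instrument, the sample protocols a stranded TruSeq kit, removal of ribosomal RNA and a HiSeq4000. Of 24060 rows 2020 were 0 in every library.

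Counts were fitted over the whole table with edgeR 4.0.16 in R 4.3.3 (filterByExpr, 15186 genes; TMM; robust quasi-likelihood F test; Benjamini-Hochberg over all genes tested; threshold 0.05). CPM use TMM-scaled library sizes, and log2 fold changes are bigenic over control. On simulated counts (15062 genes), 60.2% of 98 genes changed by 1.5-fold and 85% of 100 changed by 2-fold were called, and 4.64% of calls were unchanged genes. The simulation changed only 200 genes, whereas 44.3% of genes passed in the data, so these shares need not carry over. Coordinates, exon overlap and 50-base words come from GENCODE M21 (GRCm38, the assembly of mm10).

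The genes, lists and settings were chosen with earlier results of these data known. Full values go to the genes of each complex with the smallest p (up to 3 in each direction, without overlap), the most abundant of each complex, isoform pairs, core, F1 and Sdh genes, and up to 4 genes of each other list. Genes named beyond these (Ndufb4, Ndufb8, Ndufb9, Ndufa8, Uqcr11, Uqcrq, Uqcrc1, Uqcrc2, Uqcrfs1 and Atp5o) were chosen after their values were seen. One gene that the rule names is not reported here.

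Alternatives were library size alone, upper-quartile factors, DESeq2 1.42.0, 2 other filters, limma 3.58.1 on log2(FPKM + 1) and log2(FPKM + 0.1), an offset for length and base composition (mgcv 1.9.3), each library left out, control libraries 2 and 3 left out, Ttr as a covariate, and the replicate number as a block.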

Additional observations from a re-analysis of the deposited data

Results flagged for a closer look

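Dixon's test for 4 values, applied to the 4 CPM values of each group for each of the 80 genes, marked 7 of 160 groups (4.38%). Chance marks about 1 in 20 groups, so this share is near that of chance. Atp5a1 in control library 4 was at 1520.0 CPM, with the other controls at 1604 to 1619. Atp5l in control library 4 was at 3.61 CPM, with the others at 3.33 to 3.36. Sdha in control library 1 was at 519.4 CPM, with the others at 586 to 599. Uqcrq in control library 3 was at 51.6 CPM, with the others at 60.9 to 61.7. Among bigenic libraries, Atp5d in library 3 was at 99.3 CPM (others 114 to 117), Ndufc1 in library 3 at 24.96 CPM (others 30.7 to 31.6) and Ndufs7 in library 2 at 90.2 CPM (others 113.5 to 117). Without bigenic library 3, Ndufc1 kept its call, and Atp5a1 and Atp5l kept theirs without control library 4. Uqcrq kept its call without control library 3.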

How the results depend on the processing

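No called gene changed direction under any of the 19 alternatives that tested it (Cox8b was filtered out without control library 2 or 4), and Atp5a1, Atp5l, Ndufv3, Atp5k and Ndufc1 passed in all of them. The cause of the changes below was not tested, except that settings with fewer libraries have less information. Depth limits Cox8b, Cox7b2 and Atp5g2, which had under 70 counts in each library.

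Genes called higher were 11 of the 80 as reported. They were 5 with library size alone, 6 with upper-quartile factors and on both FPKM scales, 7 without a filter, 24 with the offset for length and base composition, and 3 without control libraries 2 and 3 and also with the Ttr covariate. Genes called lower were 9 as reported, 20 with library size alone and on both FPKM scales, 18 with upper-quartile factors, and 2 without control libraries 2 and 3 and with the Ttr covariate. Of all 15186 genes, 2641 were higher and 4105 lower with upper-quartile factors. On log2(FPKM + 1) the all-gene counts were 2370 and 4353, and on log2(FPKM + 0.1) 2377 and 4373. Leaving out 1 library at a time gave 5 (without bigenic library 4 or control library 2) to 23 (without bigenic library 2) higher calls and 6 to 10 lower calls.

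For complex I the higher calls were 3 with library size alone, 14 with the offset and 1 without control libraries 2 and 3 or with the Ttr covariate, and 3 to 12 when 1 library was left out. Its lower calls were 7 with library size alone and on both FPKM scales, 6 with upper-quartile factors and 1 without control libraries 2 and 3 or with the Ttr covariate. For complex II there was 1 lower call with library size alone, upper-quartile factors and both FPKM scales, 1 higher call with the offset, and 0 to 1 in either direction with 1 library left out. For complex III there was 1 higher call by DESeq2, 2 with the offset and 0 to 3 with 1 library left out. Its lower calls were 0 without control libraries 2 and 3 and with the Ttr covariate, and 0 to 2 with 1 library left out. For complex IV the higher calls were 0 with library size alone, upper-quartile factors, both FPKM scales, without control libraries 2 and 3 and with the Ttr covariate, 1 without a filter, and 0 to 4 with 1 library left out. Its lower calls were 4 with library size alone and both FPKM scales, 3 with upper-quartile factors, 2 with the offset, 0 with either other filter, DESeq2, the Ttr covariate or without control libraries 2 and 3, and 0 to 3 with 1 library left out. For complex V the lower calls were 5 with library size alone, upper-quartile factors and both FPKM scales, and 1 without control libraries 2 and 3 and with the Ttr covariate.

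The median log2 fold change of complex III moved from -0.1242 to -0.2099 with library size alone, -0.2067 and -0.2079 on the FPKM scales and -0.0351 with the offset. That of complex IV moved from 0.1031 to 0.0163 with library size alone and 0.0161 and 0.0167 on the FPKM scales, with 0.0227 to 0.1141 when 1 library was left out. Smaller shifts turned the sign with library size alone and on the log2(FPKM + 1) and log2(FPKM + 0.1) scales, to -0.0088, -0.0105 and -0.0105 for complex I, -0.0138, -0.0177 and -0.0177 for complex II and -0.0232, -0.0206 and -0.0207 for complex V. With Cox8b left out, a setting chosen after seeing the data, 11 of 79 genes were higher and 8 lower, and complex IV had 2 higher and 0 lower. Summed FPKM in place of CPM gave ratios of 0.987 (all 80), 1.0104, 0.9659, 0.8922, 1.0024 and 0.9823 (complexes I to V).

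Genes near 0 that had not passed changed sign. On library size alone, log2(FPKM + 1) and log2(FPKM + 0.1), in that order, Sdha was at -0.056, -0.0571 and -0.0574, Atp5b at -0.06, -0.0619 and -0.0619, Ndufs1 at -0.0303, -0.034 and -0.0343, Atp5g1 at -0.0191, -0.0193 and -0.0196, and Atp5g3 at -0.0125, -0.0182 and -0.0183. Atp5c1 was at -0.0002 on both FPKM scales, and upper-quartile factors put Sdha at -0.0283, Atp5b at -0.0335 and Ndufs1 at -0.0039. Cox7a2 was at 0.0001 by DESeq2, 0.0747 with the offset and 0.022 without control libraries 2 and 3. Cox7b2 was at 0.2277 without control libraries 2 and 3 and 0.3046 with the Ttr covariate. With 1 library left out, Sdha ran from -0.0179 to 0.0915, Atp5b from -0.0131 to 0.0585, Cox4i2 from -0.0316 to 0.2043, Cox7a2 from -0.0655 to 0.0291 and Ndufa4l2 from -0.1032 to 0.0632. Without control libraries 2 and 3 the log2 ratio of Cox7b2 to Cox7b was 0.0628 and of Atp5g1 to Atp5g3 0.0852. With 1 library left out, Atp5g1 to Atp5g3 ran from -0.0582 to 0.0635 and Cox4i2 to Cox4i1 from -0.2186 to 0.0215.

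Deviations from the group mean correlated at 0.329, 0.0239, 0.166 and 0.0625 between same-numbered libraries of the 2 groups. Between libraries of different number the correlations ran from -0.278 to 0.1. The labels do not say whether a shared number marks a pairing, and this was not tested. With the replicate number as a block, 13 of the 80 genes were higher and 9 lower; of the 20 calls, that of Cox8b was lost (adjusted p = 0.0843), and bigenic library 2 and control library 4 did not correlate best with their own number.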
